A study of Homo sapiens with 12 samples.

Results

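The genes followed here encode the enzymes and partners that write, copy and remove DNA methylation and the core of Polycomb repressive complex 2 (PRC2). They are DNMT1, UHRF1, DNMT3A, DNMT3B, TET1, TET2, TET3, EZH2, SUZ12 and EED. The genes were chosen by name, with earlier results of these data known, as the rows of the count table whose Ensembl identifier carries 1 of these symbols. All 10 were found among the 28747 identifiers of the table, and all 10 had enough counts to be tested in each comparison.

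DU145, an established cell line from a human prostate cancer, lacks the androgen receptor. The libraries came from 4 groups with 3 replicates each. The groups were DU145 cells with a control hairpin (shCtrl) or with the hairpin that the labels call shSigma, each grown in adhesion or as tumor spheres, which form without attachment in a medium that favours stem-like cells. The knockdown was stable, made with lentiviral particles and puromycin selection, and the sources do not say which hairpin the sequenced cells carried. Effects of the hairpin on its target and other differences between the transduced lines cannot be told apart here. Between 16472722 and 26957777 counts were assigned per library. Any pair of replicates differed by more than counting noise, with a chi-square per gene of 2.73 to 44.2 where counting noise alone gives about 1. In adherent culture, shCtrl replicate 1 and shSigma replicate 3 stood apart from the other libraries of their groups. Their deviations ran in parallel (r = 0.787 across genes, which are not independent replicates). The separation was less clear in shCtrl, with a chi-square of 19.85 between replicates 1 and 2, 11.3 between 2 and 3 and 44.2 between 1 and 3. Adherent shCtrl replicate 3 deviated in parallel with shSigma replicates 1 and 2 (r = 0.584 and 0.734). Calls of members that change without adherent shCtrl replicate 1, adherent shSigma replicate 3 or both are given below. Among the spheres, shCtrl replicate 2 deviated in parallel with both, less strongly (r = 0.554 with adherent shCtrl replicate 1 and 0.494 with adherent shSigma replicate 3).

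Levels are given in CPM, which are counts scaled to the effective size of the library. Log2 fold changes were tested by the quasi-likelihood test of edgeR, with Benjamini-Hochberg adjusted p over every gene tested. Epithelial markers were present and were split in direction. EPCAM and CDH1 fell with shSigma in both cultures (log2 fold changes of EPCAM -2.99 and -3.31 and of CDH1 -1.23 and -4.71 in adherent cells and spheres). The keratins KRT8, KRT18 and KRT19 rose in adherent cells (0.76, 0.58 and 1.91), whereas in spheres KRT8 and KRT18 fell (-0.21 and -0.44) and KRT19 did not pass the test (0.13, adjusted p = 0.0944). PTPRC and CD3E, which define blood cells, had at most 4 and 2 counts in any library, and PECAM1 and VWF of endothelial cells at most 7 and 12. CD68, a macrophage marker, had at most 25 counts and was called higher with shSigma in adherent cells (0.347 to 1.01 CPM, log2 fold change 1.47, adjusted p = 0.00787). COL1A1, a collagen of stromal cells, had group means of 4.52 to 22.7 CPM and was lower with shSigma in spheres (-0.92, adjusted p = 0.000434), while COL3A1 and DCN had at most 6 and 3 counts.

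DNA methylation in vertebrates is laid down on CpG dinucleotides by DNMT3A and DNMT3B and copied to new strands behind the replication fork by DNMT1, which UHRF1 recruits to hemimethylated sites. TET1, TET2 and TET3 oxidise the methyl group as a first step of its removal. PRC2 methylates histone H3 at silent developmental genes, with EZH2 as its catalytic subunit and SUZ12 and EED as partners without which it is not active. DNMT1, UHRF1 and EZH2 are widely known as genes whose transcripts rise in dividing cells, and many such genes carry sites for E2F factors at their starts. DU145 cells are known to lack functional RB1, the restraint on E2F.

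For that reason the promoters of the members, from 250 bases before to 50 bases after each start in the RefSeq table for GRCh38.p14, were searched for E2F letters. The 8-letter words searched on both strands were TTTCCCGC, TTTGGCGC, TTTCGCGC and TTTGCCGC. At least 1 word was present in 1164 of 35116 promoters in the table (3.31%) and in 5 of the 22 promoters of the members. These 5 belong to DNMT1, UHRF1, EZH2 and SUZ12. The stretch around each match is printed 5′ to 3′ on the strand of the gene, with the matched letters in capitals, because the 4 genes that share the letters differed in their response to the knockdown.
DNMT1, chr19:10194924-10195033, minus strand: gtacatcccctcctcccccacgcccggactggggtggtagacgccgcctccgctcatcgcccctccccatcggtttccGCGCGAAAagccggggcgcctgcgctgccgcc
UHRF1 (first start site), chr19:4909421-4909530, plus strand: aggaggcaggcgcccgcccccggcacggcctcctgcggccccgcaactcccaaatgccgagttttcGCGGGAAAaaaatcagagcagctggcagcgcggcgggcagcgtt
UHRF1 (second start site), chr19:4909964-4910074, plus strand: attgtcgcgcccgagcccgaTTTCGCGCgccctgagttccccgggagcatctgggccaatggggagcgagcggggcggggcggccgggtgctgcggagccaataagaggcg
EZH2, chr7:148884262-148884371, minus strand: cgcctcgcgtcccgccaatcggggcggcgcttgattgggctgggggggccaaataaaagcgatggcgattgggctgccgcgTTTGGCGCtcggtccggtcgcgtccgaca
SUZ12, chr17:31936787-31936897, plus strand: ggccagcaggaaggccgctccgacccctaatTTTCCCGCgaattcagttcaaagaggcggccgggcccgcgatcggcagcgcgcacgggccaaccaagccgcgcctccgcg

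In DNMT1 and at the first UHRF1 start the word reads on the opposite strand, so the capitals show its reverse complement. Counted from the starts in the RefSeq table, the match begins 2 bases before that of DNMT1 and 14 bases before the first of UHRF1. It begins 2 bases after that of EZH2 and 189 bases before that of SUZ12. The promoters of DNMT3A, DNMT3B, TET1, TET2, TET3 and EED in the table held none of the 4 words. For DNMT3B the only promoter in the table (chromosome 20, 32779602 to 32779901) lies inside the gene, whose annotated start is 32762385. The only one of EED (chromosome 11, 86244503 to 86244802) likewise lies downstream of the annotated start at 86201212. The promoter of DNMT1 (chromosome 19, 10194904 to 10195203) also lies inside its gene, whose annotated start on the minus strand is 10231286. Those of UHRF1, the first from 4909251, lie downstream of its annotated start at 4903080. The annotated starts of DNMT1, UHRF1, DNMT3B and EED were therefore not searched. CCAAT, the letters bound by NF-Y, were in 9 of the 22 promoters against 34.6% of all. GGGCGG, a Sp1 word, was in 14 of the 22 against 45.0% of all. The cell cycle words TTTGAA and TTCGAA were in 3 of the 22 (16.4% of all), and TATAAA was in 1 of the 22 (11.5% of all). Some of the 22 promoters overlap others of the same gene, so a site can be counted more than once. By gene, CCAAT was in 7 of the 10 members, GGGCGG in 6, the cell cycle words in 3 and TATAAA in 1. A match describes letters only and is not evidence of binding.

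Levels of different genes can be set side by side per length only, as CPM per kilobase of annotated exon (RPKM). The length was the union of all annotated exons, from 5145 bases in UHRF1 to 16474 in TET2, whichever transcripts are expressed. The order of the genes can depend on this choice. In adherent shCtrl cells SUZ12 had 24.7 ± 0.993 RPKM (SD, n = 3) and DNMT1 20.4 ± 2.34 RPKM. UHRF1, EED and EZH2 followed at 8.03 ± 3.01, 6.87 ± 0.577 and 6.39 ± 0.329 RPKM, whose ranges of mean ± SD overlap. DNMT3A had 4.16 ± 0.379, TET3 3.24 ± 0.397, TET2 2.27 ± 0.129 and DNMT3B 2.09 ± 0.228 RPKM. TET1 was the lowest of the 10 genes at 0.438 ± 0.0696 RPKM. SUZ12, DNMT1 and TET1 held their ranks in the other 3 groups, and DNMT3B had a lower mean than TET2 in each group. EZH1 is the homologue that can replace EZH2 in PRC2 and is linked to resting cells. It had 9.42 RPKM in adherent shCtrl and 13.4 RPKM in adherent shSigma cells, above EZH2 at 6.39 and 6.12 RPKM. In CPM, EZH1 had 65.8 and 93.4 and EZH2 68.8 and 65.9 in these groups, so the order in shCtrl rested on the length used.

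**Figure D1:**
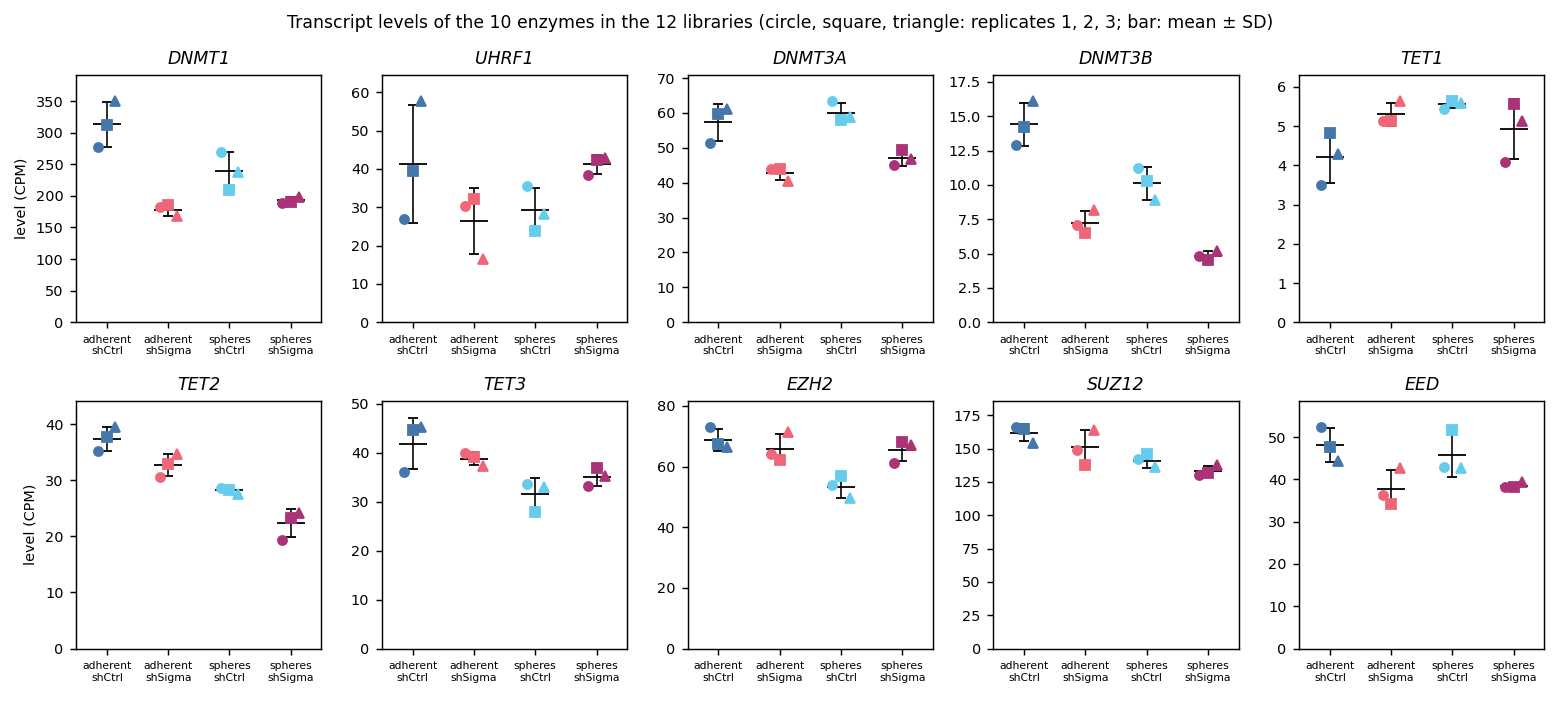
Level of each gene in CPM (linear axes from 0) in the 12 libraries. Symbols are replicates 1 (circle), 2 (square) and 3 (triangle) of each group and bars are the mean ± SD; DNMT3B is lower with shSigma in both cultures, and the 2 adherent libraries that stand apart have the lowest UHRF1 of their groups.

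In adherent cells the shSigma knockdown was accompanied by lower transcript levels of the DNA methyltransferases. DNMT1, DNMT3A and DNMT3B fell, as did TET2 and the PRC2 subunit EED. No member rose, and EZH2 and SUZ12 did not pass the test. The count of 5 lower members of 10 stands beside 27.7% of all 13764 genes called lower, and the count of 0 higher beside 22.3% called higher, at an adjusted p under 0.05. This background depended on single libraries. Without shSigma replicate 1 the genes called lower went from 3813 to 2477 and those called higher from 3073 to 2683, and higher calls also outnumbered lower ones without shSigma replicate 2, shCtrl replicate 1 or shCtrl replicate 2. The median log2 fold change was -0.34 over the 10 members and -0.014 over all genes tested. In bulk libraries, fewer cells with a transcript and less transcript per cell cannot be told apart.

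DNMT1, the maintenance methyltransferase (chromosome 19, 10133342 to 10231286, minus strand), had 278, 312 and 350 CPM in the adherent shCtrl libraries. In the shSigma libraries it had 182, 185 and 168 CPM. The groups did not overlap, and the highest shSigma value was well under the lowest control. The log2 fold change was -0.87 (SE 0.0945, adjusted p = 0.000252). The 40 nearest tested genes had a median of -0.28, and DNMT1 remained lower after subtraction of this median (-0.59, adjusted p = 0.00184). DNMT1 shares 83 exon bases with S1PR2 on the same strand, so some reads could belong to either gene.

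UHRF1, the partner that brings DNMT1 to new strands (chromosome 19, 4903080 to 4962154, plus strand), varied widely in the adherent libraries. It had 26.9, 39.4 and 57.7 CPM with shCtrl and 30.4, 32.2 and 16.5 CPM with shSigma. The groups overlapped, and the lowest value of each was in the library that stood apart. The log2 fold change of -0.69 (SE 0.364, 95% interval -1.58 to 0.20) did not pass the test (adjusted p = 0.165). Without both of those libraries it was -0.65 with an adjusted p of 0.0453.

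Both de novo methyltransferases fell. DNMT3A (chromosome 2, 25227855 to 25342590, minus strand) had 51.3, 59.6 and 61.0 CPM with shCtrl and 43.9, 43.9 and 40.6 CPM with shSigma. For DNMT3A the groups did not overlap, and the log2 fold change was -0.48 (SE 0.091, adjusted p = 0.00357). DNMT3B (chromosome 20, 32762385 to 32809359, plus strand) had 12.9, 14.2 and 16.1 CPM with shCtrl. It had 7.05, 6.5 and 8.15 CPM with shSigma, so that each shSigma library was below each control. Its log2 fold change of -1.06 (SE 0.119, adjusted p = 0.000299) was the largest among the members in adherent cells, while its 40 neighbours had a median of 0.12.

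Among the TET dioxygenases, TET2 (chromosome 4, 105145875 to 105279816, plus strand) had 35.2, 37.6 and 39.4 CPM with shCtrl and 30.6, 32.8 and 34.7 CPM with shSigma. The groups were separated by less than 1 CPM. The log2 fold change was -0.26 (SE 0.0736, adjusted p = 0.0221), but the call was lost in 12 of 16 alternatives, including DESeq2 (adjusted p = 0.163). TET3 (chromosome 2, 73984910 to 74108176, plus strand) ranged from 36.0 to 45.2 CPM with shCtrl and from 37.3 to 40 CPM with shSigma, with a log2 fold change of -0.17 (adjusted p = 0.202). Without both libraries that stood apart TET3 was at -0.20 with an adjusted p of 0.0476. TET1 (chromosome 10, 68560337 to 68694487, plus strand) was at 3.49, 4.82 and 4.30 CPM with shCtrl and at 5.14, 5.12 and 5.64 CPM with shSigma. These TET1 groups did not overlap, yet the log2 fold change of 0.27 did not pass the test (95% interval -0.075 to 0.62, adjusted p = 0.167), at 91 to 117 counts per library.

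The subunits of PRC2 differed from each other. EED (chromosome 11, 86201212 to 86278813, plus strand) had 52.3, 47.6 and 44.3 CPM with shCtrl and 36.2, 34.1 and 42.7 CPM with shSigma. Its groups did not overlap, and the log2 fold change was -0.42 (SE 0.104, adjusted p = 0.0119). With either of shSigma replicates 1 and 2 or shCtrl replicates 1 and 2 left out, EED lost its call (adjusted p = 0.102, 0.10, 0.0695 and 0.0776). EED shares 66 exon bases with MIR6755 and 221 with an antisense long noncoding RNA. SUZ12 (chromosome 17, 31937007 to 32001038, plus strand) had 166, 165 and 154 CPM against 149, 138 and 164 CPM, with overlapping groups and a log2 fold change of -0.17 (95% interval -0.34 to 0.00027, adjusted p = 0.089). Without both libraries that stood apart SUZ12 was at -0.17 with an adjusted p of 0.0485. EZH2 (chromosome 7, 148807257 to 148884321, minus strand) had 72.9, 67.3 and 66.3 CPM against 64.1, 62.1 and 71.5 CPM. EZH2 also overlapped between groups, with a log2 fold change of -0.13 (95% interval -0.31 to 0.049, adjusted p = 0.199). The lower end of this interval lay above the change of DNMT1.

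In tumor spheres the same 5 genes, DNMT1, DNMT3A, DNMT3B, TET2 and EED, were called lower, and UHRF1 and EZH2 rose. Of all 13774 genes tested, 30.9% were called lower and 30.2% higher, so the 5 lower and 2 higher members of 10 stand against a high background. The median log2 fold change of the members was -0.22, and that of all genes was 0.0015. Replicates were closer here, with a biological coefficient of variation of 6.89% against 14.4% in adherent cells.

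DNMT3B had 11.2, 10.3 and 8.87 CPM in shCtrl spheres and 4.79, 4.5 and 5.19 CPM in shSigma spheres. No library of one group reached the other, and the levels were the lowest of DNMT3B in the study. The log2 fold change was -1.07 (SE 0.127, adjusted p = 1.93e-05). DNMT3A had 63.4, 58.1 and 58.8 CPM against 45.0, 49.4 and 46.8 CPM, also without overlap, with a log2 fold change of -0.36 (SE 0.0672, adjusted p = 0.00069).

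DNMT1 had 270, 210 and 237 CPM in shCtrl spheres and 189, 191 and 198 CPM in shSigma spheres. The shSigma libraries lay close together and under all controls. The log2 fold change was -0.32 (SE 0.0819, adjusted p = 0.00663). The 40 genes around DNMT1 had a median of -0.26 in spheres, 21 of them called lower and 5 higher, and with this median subtracted DNMT1 was at -0.056 with an adjusted p of 0.581. UHRF1 went the other way, with 35.6, 23.9 and 28.2 CPM in shCtrl and 38.4, 42.3 and 42.9 CPM in shSigma spheres. The UHRF1 groups did not overlap in spheres, and the log2 fold change was 0.49 (SE 0.128, adjusted p = 0.00739). Its neighbours had a median of 0.30, and with that subtracted UHRF1 was at 0.19 (adjusted p = 0.231). In 1 fit of all 12 libraries the UHRF1 call was lost as well (adjusted p = 0.213).

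TET2 had 28.6, 28.3 and 27.6 CPM in shCtrl and 19.4, 23.2 and 24.2 CPM in shSigma spheres. The groups did not overlap and the log2 fold change was -0.34 (SE 0.0904, adjusted p = 0.00603), a call that was kept in all alternatives tried. TET3 ranged from 27.9 to 33.7 CPM and from 33.2 to 36.9 CPM (log2 fold change 0.15, adjusted p = 0.16), and TET1 from 5.45 to 5.63 CPM and from 4.08 to 5.56 CPM (log2 fold change -0.18, adjusted p = 0.296). Both pairs of ranges overlapped.

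EZH2 had 54.0, 56.8 and 49.5 CPM in shCtrl spheres and 61.2, 68.1 and 67.2 CPM in shSigma spheres. All shSigma spheres exceeded all control spheres, and the log2 fold change was 0.29 (SE 0.0706, adjusted p = 0.00361). EED had 42.9, 51.7 and 42.7 CPM against 38.1, 38.2 and 39.3 CPM, without overlap, with a log2 fold change of -0.25 (SE 0.0805, adjusted p = 0.0174). SUZ12 had 142, 146 and 136 CPM against 130, 132 and 138 CPM, with overlapping ranges (log2 fold change -0.087, 95% interval -0.20 to 0.026, adjusted p = 0.163). The sphere call of EED was lost without shSigma replicate 1 or 2 or shCtrl replicate 2 (adjusted p = 0.0559, 0.0574 and 0.0572), in 1 fit of all 12 libraries (0.055) and with the median of its neighbours subtracted (-0.16, adjusted p = 0.109).

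**Figure D2:**
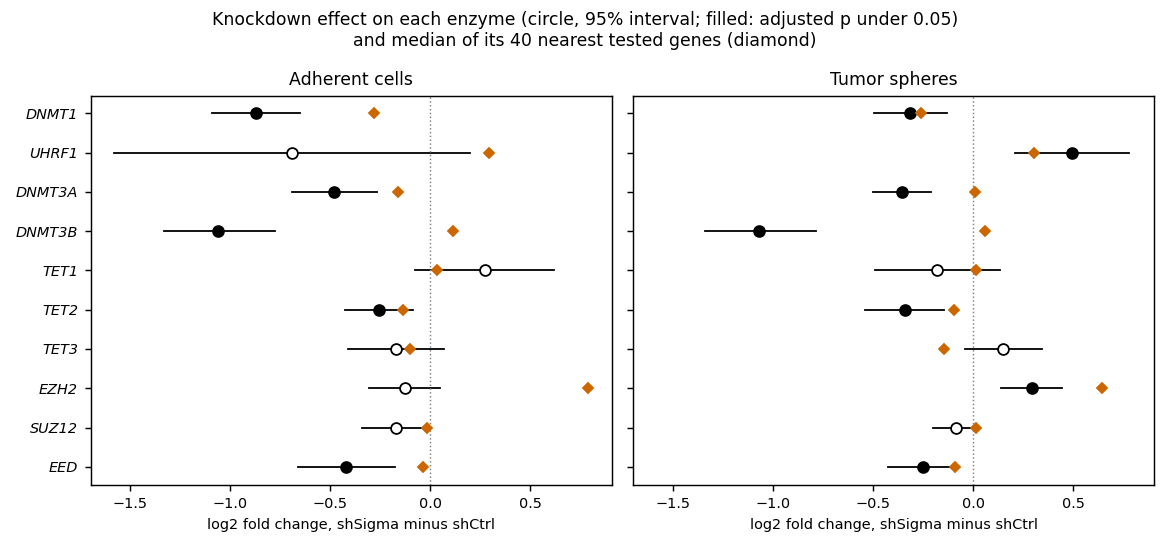
Log2 fold change of each gene with the shSigma knockdown (circle, with its 95% interval; filled where the adjusted p was under 0.05) and the median of its 40 nearest tested genes (diamond), in adherent cells and tumor spheres. DNMT3B lies near -1 in both cultures with neighbours near 0, while EZH2 lies under its neighbours in both.

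The region of EZH2 on chromosome 7 shifted with the hairpin. Of the 40 tested genes nearest to EZH2, 23 were called higher and 1 lower in adherent cells (median log2 fold change 0.79), and 34 higher and 0 lower in spheres (median 0.65). Over all tested genes of chromosome 7 the medians were 0.41 (666 genes) and 0.44 (668 genes). EZH2 was under 38 of its 40 neighbours in adherent cells and under 34 of 40 in spheres. With that median subtracted EZH2 was at -0.92 in adherent cells (adjusted p = 8.85e-05) and at -0.35 in spheres (adjusted p = 0.00117), called lower in both. The direction of EZH2 in spheres thus depended on the reference. No copy number was measured in the files used here, and the part of the regional shift in the result was not tested.

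**Figure D3:**
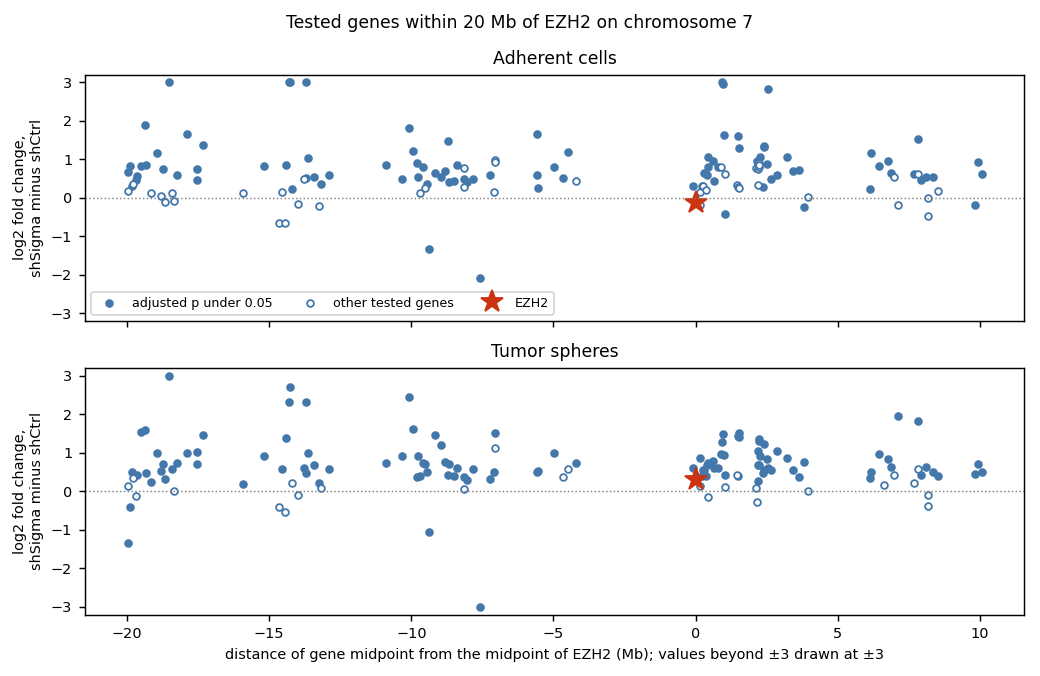
Log2 fold change with the shSigma knockdown of the tested genes within 20 Mb of EZH2, by the distance of gene midpoints in Mb, in adherent cells (top) and tumor spheres (bottom). Filled points had an adjusted p under 0.05 and the star is EZH2; most neighbours lie above 0 and above EZH2.

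Whether the knockdown effect differed between the cultures was tested in a joint fit of the 12 libraries with an interaction term. Positive values mean a less negative or more positive change in spheres. DNMT1 (0.50, SE 0.134, adjusted p = 0.0123) and EZH2 (0.36, SE 0.111, adjusted p = 0.0266) passed, and 0 members were negative and called. Among all 14175 genes, 12.7% were called higher and 15.6% lower. DNMT1 thus fell more in adherent cells than in spheres, and EZH2 was at -0.13 in adherent cells and 0.29 in spheres. The call of DNMT1 was kept with each library left out in turn, while that of EZH2 was lost in 5 of these 12 fits, with adjusted p up to 0.0714. UHRF1 had the largest difference, 1.14 (95% interval 0.16 to 2.13), but missed the threshold (adjusted p = 0.0828). Without both adherent libraries that stood apart UHRF1 was again at 1.14 with an adjusted p of 0.00765, and TET3, at 0.27 with all libraries (adjusted p = 0.181), was at 0.35 (adjusted p = 0.0383). For DNMT3B the difference was -0.071 (95% interval -0.47 to 0.33, adjusted p = 0.819).

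The change from adherent culture to spheres was examined within each hairpin. These comparisons use the same libraries as those above and are not independent of them. In control cells 6 of 10 members were lower in spheres and 0 higher, where 26.3% and 27.4% of 13800 genes were called lower and higher. The lower members were DNMT1 (log2 fold change -0.39, adjusted p = 0.023), DNMT3B (-0.51, 0.0115), TET2 (-0.41, 0.0029), TET3 (-0.41, 0.0194), EZH2 (-0.37, 0.00484) and SUZ12 (-0.20, 0.0237), with the adjusted p second in each case. The calls of DNMT1 and TET3 were lost without adherent replicate 2 (adjusted p = 0.0652 and 0.0782), without sphere replicate 2 (0.0611 and 0.0632) and with the replicate block (0.05 and 0.0509). That of SUZ12 was lost without adherent replicate 2 or sphere replicates 1 or 3 (0.0929, 0.071 and 0.102) and with upper-quartile scaling (0.0726). DNMT3A stayed at 57.3 ± 5.22 and 60.1 ± 2.86 CPM (SD, n = 3), and EED at 48.1 ± 4.04 and 45.8 ± 5.16 CPM. TET1 was higher on average, at 5.56 ± 0.0983 against 4.21 ± 0.669 CPM, without passing the test (adjusted p = 0.0528). UHRF1 did not pass either (-0.50, adjusted p = 0.176). It was called lower without adherent replicate 1 (-0.77, adjusted p = 0.00872) and with the median of its neighbours subtracted (-1.12, adjusted p = 0.016).

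In shSigma cells 2 of 10 members were lower in spheres and 0 higher, where 25.2% and 21.9% of 13622 genes were called lower and higher. They were DNMT3B (log2 fold change -0.56, adjusted p = 0.00691) and TET2 (-0.53, adjusted p = 0.00314). UHRF1 (0.66, adjusted p = 0.0969) and TET3 (-0.12, adjusted p = 0.21) did not pass. Without adherent shSigma replicate 3 UHRF1 was called higher and TET3 lower, and DESeq2 also called UHRF1 higher. DNMT1 was at 178 ± 9.30 CPM in adherent and 193 ± 4.58 CPM in sphere cultures (adjusted p = 0.127), and EZH2 at 65.9 ± 4.98 and 65.5 ± 3.74 CPM (adjusted p = 0.861). DNMT3B and TET2 were thus lower in spheres with either hairpin and lower with shSigma in either culture, although the adherent call of TET2 was lost in most alternatives. For both genes the shSigma spheres were the lowest group, and no neighbouring groups overlapped in the order of the 4. The groups of DNMT1 were likewise apart at each step, with adherent shSigma cells the lowest. How many of all genes are apart at each step was not counted, so the order only describes these genes. The group means of DNMT3B spanned 2.98-fold, the widest of the members, and those of SUZ12 1.21-fold, the narrowest, with overlap at each step.

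Genes of S phase and of mitosis also differed between the groups. The counts of this and the following lists stand beside 27.7% of all genes called lower and 22.3% called higher in adherent cells, and 30.9% and 30.2% in spheres. Of 39 tested S phase genes other than the members, 36 were lower and 0 higher with shSigma in adherent cells (median log2 fold change -0.90), and 25 of 38 were lower and 3 higher in spheres (median -0.26). All 24 mitotic genes were lower in adherent cells (median -1.01), while 19 were lower and 2 higher in spheres (median -0.28). In adherent cells CLSPN, a checkpoint mediator at replication forks, and EXO1, a nuclease of mismatch repair, fell (log2 fold changes -2.14 and -1.59), as did KIF2C and CDC20 of mitosis (-1.62 and -1.4). In spheres the S phase genes CCNE2 and GINS2 (-1.3 and -1.13) and the mitotic genes UBE2C and CDK1 (-1.07 and -0.69) fell, whereas BLM, MCM5, MKI67 and CENPF rose by 0.56, 0.28, 0.41 and 0.30. In adherent cells BLM, MKI67 and CENPF were lower (-0.65, -0.63 and -0.90), and MCM5 did not pass the test (-0.68, adjusted p = 0.0702). Of the E2F and RB genes, 4 of 8 tested were lower and 1 higher in adherent cells, with E2F1 at -0.80, LIN54 at -0.57, RBL1 at -0.40 and RBL2 at 0.49. The 4 lower calls became 1 without shSigma replicate 1 or shCtrl replicate 2, and 2 without shSigma replicate 2. In spheres 1 was lower (TFDP1, -0.25) and 3 were higher, RBL1 and RBL2 at 0.51 and 0.42 among them.

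Each member was therefore also read against the mean log2 CPM of the 39 S phase genes in the same library. With shSigma that mean itself fell from 6.45 to 5.66 in adherent cells and from 5.84 to 5.59 in spheres. A gene of unchanged level therefore rises on this scale, more so in adherent cells. The share of all genes that rise on it was not computed. On this scale DNMT1 changed by -0.013 in adherent cells and by -0.046 in spheres, with overlapping libraries in both. DNMT3B changed by -0.15 in adherent cells, with overlap, and by -0.73 in spheres, where all shSigma libraries were below all controls. EZH2 was above its control libraries in both cultures, by 0.73 and 0.55, as were SUZ12 (0.69 and 0.17) and TET3 (0.69 and 0.41). UHRF1 was higher by 0.76 in spheres and overlapped in adherent cells. DNMT3A, TET1, TET2 and EED were above their controls in adherent cells, by 0.38, 1.11, 0.60 and 0.44, and overlapped in spheres. With 3 against 3 libraries an exact permutation test cannot go under 0.1, so these differences are a description, and the part of the S phase genes in the members' results was not tested.

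**Figure D4:**
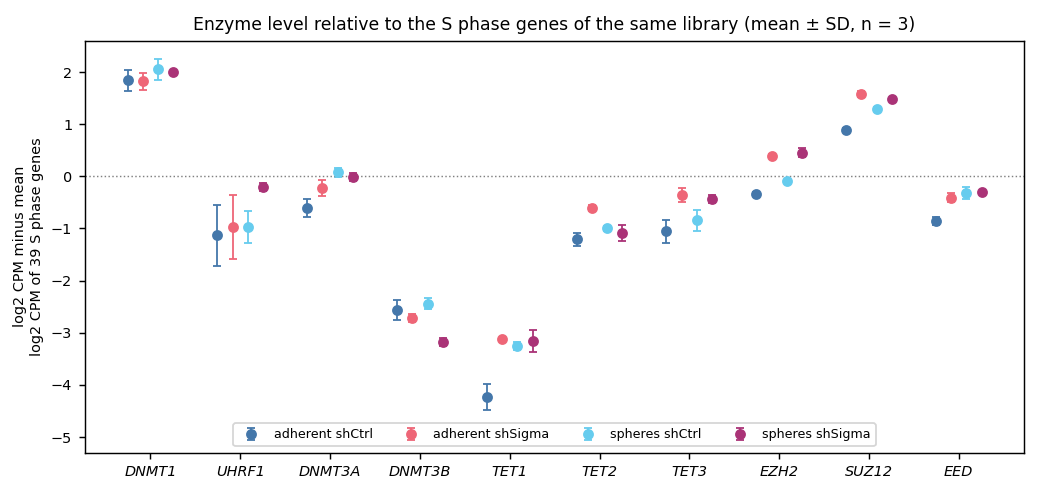
Log2 CPM of each gene minus the mean log2 CPM of 39 S phase genes in the same library, as mean ± SD of 3 libraries per group. DNMT1 is level across adherent shCtrl and shSigma cells on this scale, and DNMT3B is lowest in shSigma spheres. EZH2 and SUZ12 are higher with shSigma in both cultures relative to the S phase genes, whose own mean fell with shSigma.

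The gene closest to DNMT1 over the 12 libraries was MCM7, a subunit of the replicative helicase, with a root mean square difference of 0.0945 in log2 CPM after each gene was centred on its mean. GALNT2 (0.11) and CHAF1A (0.111), a subunit of a histone chaperone of replicating chromatin, came next of 10760 genes compared, whose median difference was 0.425. UHRF1 was closest to CENPM (0.148), MCM5 (0.156) and LMNB2 (0.181). DNMT3B was closest to SMARCC1 (0.105), a core subunit of SWI/SNF remodellers, then to BCL2L2 (0.138) and ULK2 (0.139). DNMT3A was nearest to RFX2 (0.0563), USP11 (0.0589) and MUL1 (0.0678). The values for TET1 were 0.0913 with MAP3K15, 0.108 with SPRYD4 and 0.111 with CTC1, for TET2 0.0718 with ZNF621, 0.0732 with ARAP2 and 0.076 with YLPM1, and for TET3 0.0573 with SLC7A1, 0.0767 with ACLY and 0.0772 with DHX38. EZH2 was nearest to SLC25A30 (0.0574), ATE1 (0.0577) and ZDHHC2 (0.0603), SUZ12 to ROCK1 (0.0267) and DNAJB14 (0.03), and EED to HDGFL3 (0.051), NEMF (0.0516) and HSD17B11 (0.0563). SUZ12 itself varied by a root mean square of 0.12 around its mean, against 0.56 for DNMT3B, and its median difference to the genes compared was 0.299.

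Of the partners of the DNA methyltransferases, 6 of 8 tested fell and 0 rose in adherent culture (27.7% and 22.3% of all genes), with a median of -0.56. PCNA, HELLS and CDCA7 are also among the S phase genes counted above, so the lists are not separate evidence. PCLAF, a PCNA-bound factor that takes part in recruiting DNMT1, and HELLS, a remodeller needed for DNA methylation, had log2 fold changes of -1.46 and -1.02. In spheres 3 of 8 were lower and 1 higher (30.9% and 30.2% of all genes, median -0.050). There HELLS (-0.70, adjusted p = 6.38e-06) and PCNA, the sliding clamp (-0.575, adjusted p = 6.63e-06), fell, whereas CDCA7, which binds HELLS, rose by 0.24 (adjusted p = 0.0102), although it was lower in adherent cells (-0.43, adjusted p = 0.00304). Of 7 tested readers of methylated CpG, 0 were lower in either culture and 2 in adherent cells and 4 in spheres were higher (22.3% and 30.2% of all genes). ZBTB38 rose by 0.39 and 0.64 in adherent cells and spheres, and MBD3 rose by 0.58 in spheres.

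Genes that act with the TET enzymes or in removal of oxidised bases were split, with 5 of 11 lower and 3 higher in adherent culture (27.7% and 22.3% of all genes), then 6 lower and 2 higher in spheres (30.9% and 30.2%). CXXC5, which encodes a CpG-binding protein, rose from 2.95 to 11.8 CPM in adherent cells (log2 fold change 1.95, adjusted p = 0.000434) and from 7.14 to 19.2 CPM in spheres (1.42, adjusted p = 1.24e-06). Its relative CXXC4 fell from 2.37 to 0.849 CPM in adherent cells. OGT, a glycosyltransferase that binds TET proteins, rose by 0.66 in adherent cells and fell in spheres (-0.47, adjusted p = 3.72e-05). GADD45B fell in adherent cells (-0.58, adjusted p = 0.0184) and rose by 1.49 in spheres. IDH2, a mitochondrial source of the TET cosubstrate, rose by 0.39 in adherent cells (adjusted p = 0.0188) and fell in spheres (-0.685). APEX1, a nuclease of base excision repair (-0.94 and -0.33), and GADD45A (-0.67 and -1.16) fell in both cultures.

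Of the 11 genes that supply or use methyl groups, adherent culture had 5 lower and 2 higher (27.7% and 22.3% of all genes), and spheres 7 lower and 1 higher (30.9% and 30.2%). MTHFD1, a cytosolic enzyme of folate metabolism, fell from 523 to 210 CPM in adherent cells (log2 fold change -1.38, adjusted p = 1.33e-05) and from 321 to 193 CPM in spheres (-0.74, adjusted p = 1.66e-07). Among mitochondrial folate enzymes MTHFD2 fell in both cultures (-0.82 and -0.47), while SHMT2 fell in spheres (-0.60) and did not pass the test in adherent cells (-0.14, adjusted p = 0.502). MTRR, which reactivates methionine synthase, rose by 0.76 in adherent cells and fell in spheres (-0.35, adjusted p = 8.09e-05), and NNMT, which consumes methyl groups, rose by 0.36 and 0.15 in adherent cells and spheres.

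The other PRC2 subunits were split in adherent cells, where 4 of 9 tested were lower and 2 higher (27.7% and 22.3% of all genes), and in spheres 1 was lower and 3 higher (30.9% and 30.2%). EZH1 rose by 0.44 in adherent cells (adjusted p = 0.00155) and by 0.76 in spheres (adjusted p = 5.67e-07), and JARID2, which helps target PRC2, by 0.47 and 0.49. MTF2, another targeting subunit, fell from 80.0 to 42.1 CPM in adherent cells (log2 fold change -0.99, adjusted p = 5.06e-05) and from 64.1 to 47.8 CPM in spheres (-0.42, adjusted p = 0.000416). Its relative PHF19 fell by 0.63 in adherent cells. PHF1, EPOP and EZHIP were listed at 0 counts in all libraries, as were DNMT3L and RING1, and were not tested. How reads were assigned to genes is not given, so 0 counts do not show that a transcript was absent.

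Genes of PRC1, the complex that binds the PRC2 mark, counted 1 lower and 5 higher of 20 tested with shSigma in adherent culture, and 4 lower and 7 higher of 20 in spheres. Beside 27.7% lower and 22.3% higher of all genes in adherent culture, and 30.9% and 30.2% in spheres, the shares of higher PRC1 genes were near the background. Without adherent shSigma replicate 3 the 5 higher became 8. PCGF5 rose in both cultures (0.55 and 0.455) and BMI1 likewise (0.43 and 0.71), whereas PCGF3 rose by 0.46 in adherent cells and fell in spheres (-0.32, adjusted p = 0.00132). CBX2, a reader of the PRC2 mark, fell in both cultures (-0.68, adjusted p = 0.0377 and -0.59, adjusted p = 0.00178), and PHC1 fell by 0.33 in spheres. Of 6 genes that remove Polycomb marks, 1 was lower in adherent cells (ASXL2, -0.20). In spheres KDM6B, a demethylase of the PRC2 mark, rose by 0.47 and ASXL1 by 0.43, while BAP1, a deubiquitinase, fell (-0.275).

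**Figure D5:**
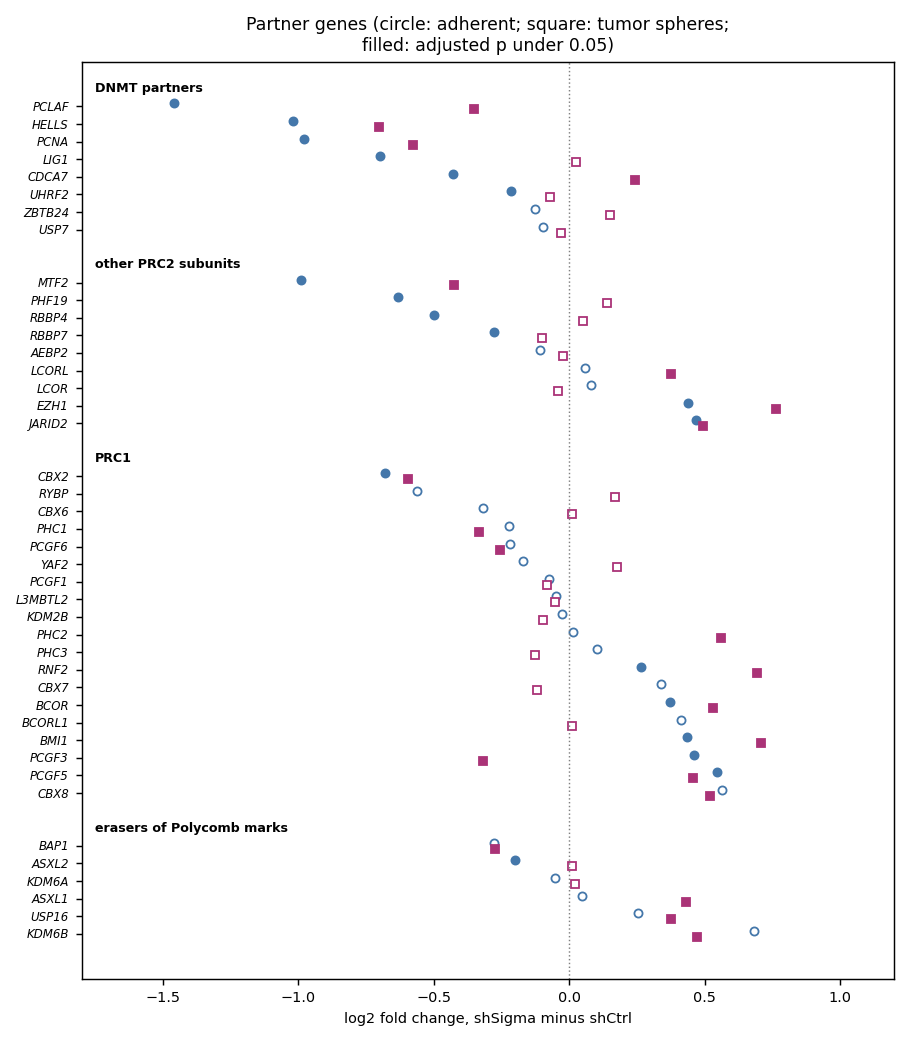
Log2 fold change with the shSigma knockdown of DNMT partners, other PRC2 subunits, PRC1 genes and erasers of Polycomb marks, in adherent cells (circle) and tumor spheres (square), filled where the adjusted p was under 0.05. MTF2 and HELLS lie left of 0 and EZH1 and JARID2 right of 0 in both cultures.

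Genes known to be silenced by DNA methylation in somatic cells had few counts, and 16 of the 18 germline genes of the list were too low to be tested. The other 2 were STK31, which fell from 17.9 to 6.33 CPM in adherent cells and rose from 6.40 to 10.3 CPM in spheres (log2 fold change -1.56 and 0.68), and TDRD6, which rose by 0.95 and 1.15 from levels near 1 CPM. Of 12 tested genes known as PRC2 targets in cancer cells, 3 were lower and 5 higher in each culture, beside 27.7% lower and 22.3% higher of all genes in adherent culture and 30.9% and 30.2% in spheres. Without sphere shCtrl replicate 1 the 5 higher in spheres became 8. KLF2, a Krüppel-like factor, rose by 1.03 and 1.28. CDH1, the epithelial cadherin (-1.23 and -4.71), and RARRES1 (-1.09 and -1.53) fell in both. DNA methylation, histone marks and protein levels were not analysed here, so the values describe transcripts only.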

How the data were processed

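Libraries were made by the authors with a directional kit from 800 ng of total RNA and read as 75 nt single ends. The submitters' processing notes name STAR 2.6.1c and GRCh38.p12. Which annotation was counted, whether strand was used and how multiply aligned reads were treated is not given in the sources used here. The authors deposited raw counts per Ensembl gene, without normalization. Symbols, coordinates and exon lengths came from GENCODE release 44, which gave a symbol to 26153 of 28747 identifiers, and promoters came from RefSeq. The members and gene lists were chosen with earlier results of these data known.

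From the deposited counts, CPM, RPKM and log2 fold changes were computed in R 4.3.3 (edgeR 4.0.16, limma 3.58.1). Counts were scaled by TMM and filtered with filterByExpr at a minimum count of 10. Each pair of groups was fitted alone, and the interaction over 12 libraries, by edgeR's two-sided quasi-likelihood test in its robust form. P-values were adjusted by Benjamini and Hochberg's method across each fit. Genes were called at an adjusted p under 0.05. Intervals are 95% intervals of the fit. For the comparison with S phase genes, 0.5 was added to CPM before the logarithm. P-values measure the spread between samples that the labels number as replicates and the study's methods call independent. Whether the replicates are separate cultures of the same transduced line is not said in the sources. Depth of 16472722 to 26957777 counts left TET1 with 81 to 117 counts per library.

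Named genes were the members, up to 2 called genes with the largest rise and 2 with the largest fall of each list in each knockdown comparison (reaching 1 CPM in the higher of the groups), and the 3 genes nearest to each member among those of at least 5 CPM. The gene targeted by the hairpin and a few others that this rule names are not reported here. The markers and the genes listed at 0 were named besides these. Alternatives tried were a fit with DESeq2 1.42.0, DESeq2 size factors and upper-quartile scaling within edgeR, no filter, a minimum of 10 counts in each library, a joint fit of 12 libraries, the replicate block, an adjusted p under 0.01, subtraction of the median of the 40 nearest genes and each library left out. The fit without both adherent libraries that stood apart was chosen after seeing the data. The fits were also run on simulated counts with known fold changes, independent libraries and a set spread, which does not cover the shared deviations seen here. Figures were drawn with Python 3.11.15 and matplotlib 3.10.9.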

Additional observations from a re-analysis of the deposited data

Results flagged for a closer look

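DNMT1 had a knockdown log2 fold change that differed between the cultures by 0.503 (tumor spheres minus adherent cells, edgeR interaction test, adjusted p = 0.0123). Its level fell from 313 ± 36.0 to 178 ± 9.30 CPM in adherent cells and from 239 ± 30.4 to 193 ± 4.58 CPM in spheres (SD, n = 3). The mean log2 CPM of the 39 S phase genes fell from 6.45 to 5.66 and from 5.84 to 5.59 in the same groups, and its part in the difference was not tested.

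EZH2 had a knockdown effect that differed between the cultures by 0.357 (same test, adjusted p = 0.0266). It had 68.8 ± 3.55 and 65.9 ± 4.98 CPM in adherent and 53.4 ± 3.67 and 65.5 ± 3.74 CPM in sphere cultures with shCtrl and shSigma, respectively (SD, n = 3). The difference was 0.403 (adjusted p = 0.0143) with the median of its 40 neighbours subtracted.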

How the results depend on the processing

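TET1, with 81 to 117 counts per library, is the member most limited by depth. Of 820 recomputed values of the 50 results (10 genes in 5 comparisons), 729 kept their direction and side of the threshold, 49 lost the call, 22 gained one and 20 changed sign, and 19 results were kept in every alternative. Causes were not tested where none is named. The calls of DNMT1, DNMT3A and DNMT3B in adherent cells and of DNMT3A, DNMT3B and TET2 in spheres were kept in all alternatives.

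The number of called members in adherent cells was 5, against 8 without both libraries that stood apart, 3 at an adjusted p under 0.01, and 3 to 6 with each library left out. Without shSigma replicate 1 or 2, or shCtrl replicate 1 or 2, it was 3. In shCtrl cells across cultures it was 6, against 2 at an adjusted p under 0.01 and 4 to 7 with each library left out. In shSigma cells across cultures it was 2, against 4 with the neighbour median subtracted and 2 to 4 with each library left out, where the absence of adherent shSigma replicate 3 gave 4. For the interaction it was 2, against 4 without both libraries, 0 at an adjusted p under 0.01 and 1 to 4 with each library left out, where the absence of adherent shCtrl replicate 1 gave 4. In spheres the count of 7 moved to 5 in 1 fit of 12 libraries and to 5 with the neighbour median subtracted. Calls over all genes moved as well. In adherent cells they were 6886, against 8058 without both libraries and 4878 at an adjusted p under 0.01. With each library left out they were 5160 to 7101. In shCtrl cells across cultures they were 7404, against 5149 and 5679 to 8364 in the order above. In shSigma cells they were 6414, against 6106 and 4723 to 7753. For the interaction they were 4024, against 4918, 2508 and 3232 to 4691. In spheres 8414 became 7170 and 7761. Between 13622 and 14358 genes were tested in these fits. Over all genes, the share of interaction calls that were higher was 44.9%, but 56.0% with no filter and 56.9% with at least 10 counts in every library.

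Values that changed sign were EZH2 in spheres (-0.354), DNMT3A (-0.0721) and EED (0.000271) across cultures in shCtrl, and DNMT1 (-0.276) and EZH2 (-0.387) across cultures in shSigma, all with the neighbour median subtracted, of which DNMT3A and EED were not called. The other sign changes were of values not called, namely DNMT3A across cultures in shCtrl (-0.0441 to 0.0942 with each library left out), EZH2 across cultures in shSigma (-0.00848 in 1 fit of 12 libraries and -0.0154 to 0.066 with each library left out) and TET1 there (-0.172 to 0.0403 with each library left out). For the interaction they were SUZ12 (-0.0106 to 0.156 with each library left out) and DNMT3B (0.00906 with no filter, 0.108 without both libraries, -0.131 to 0.0921 with each library left out).

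Replicate numbers were shared by the groups, but same-numbered samples did not as a rule deviate together. Their r across genes was -0.817 to 0.379 over 18 pairs, 4 of them over 0.1. No pairing by number was seen, but deviations from means of 3 libraries cannot decide whether the numbers pair the samples. With the replicate block, 3 members were called in adherent cells and 1 in the interaction. The block left out TET2 (adjusted p = 0.113) and EED (0.0546) in adherent cells and EZH2 (0.0598) in the interaction, and 4 members were called across cultures in shCtrl. Over all genes it called 4874 in place of 6886 in adherent cells. In the interaction it called 3428 in place of 4024, and across cultures in shCtrl 6566 in place of 7404.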
